A study of Danio rerio with 2 samples.

Results

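The genes described here are the 10 that load neurons with glutamate or GABA, make GABA, or take it back up from outside the cell. They were chosen by symbol: the vesicular glutamate transporter genes slc17a6a, slc17a6b, slc17a7a, slc17a7b and slc17a8 (collectively Vglut), the glutamate decarboxylase genes gad1a, gad1b and gad2 (collectively Gad), the vesicular GABA transporter gene slc32a1, and the plasma membrane GABA transporter gene slc6a1b. All 10 were among the 25435 features of both count matrices, each as a single row. The matrices came from adult zebrafish brain cells from fish with Gal4 alleles of gpr85, which encodes an orphan G-protein-coupled receptor. Fish of genotype gpr85Gal4/+ carried 1 Gal4 allele (control), and fish of genotype gpr85GAL4/GAL4 carried 2 (knockout). Both groups therefore carried a Gal4 allele, and the control had 1 allele without it. Live eGFP+ cells were sorted, described by the labels as expressing gpr85, so they are not a sample of the whole brain. Each genotype had 1 library, and the number of fish behind it is not given in the sources used here. Every difference below is a difference between 2 libraries, without a replicate check.

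Glutamate-using neurons fill synaptic vesicles through proteins of the Vglut family, and neurons usually rely mainly on a single member or a pair of them. GABA-using neurons make GABA from glutamate with glutamate decarboxylase, encoded by the Gad genes, and fill vesicles through the transporter encoded by slc32a1. Glutamate is thus both a transmitter and the precursor of GABA, and some neurons are known to use both. Most of the cells described here carried markers of cerebellar granule cells, which are glutamatergic and carry Vglut1, the product of SLC17A7 in mammals.

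A barcode was kept as a cell with at least 1000 unique molecular identifiers (UMIs, counts of separate captured transcripts), at least 500 genes and at most 15% mitochondrial UMIs. This left 4091 control and 3231 knockout cells, 7322 in all, with medians of 2585 and 2844 UMIs. The 2 libraries shared 8 cell barcodes. Levels are on the CPM scale, the UMIs of a gene over all UMIs of the cells summed. Transcripts were captured by their 3 prime ends, so a level does not grow with transcript length, although capture may differ between genes. Intervals are 95% and cover counting error only. They leave out differences between fish, sorts, library preparations and cells, and understate the error for genes whose UMIs sit in a handful of cells.

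Cell types were set by 9 marker gates, none of which used any of the 10 genes. A gate asks how many markers of a list a cell has at 1 UMI or more. The granule gate (at least 3 of 9 markers such as zic1, fat2 and cbln12) took 2599 control and 2395 knockout cells, which is 63.5% and 74.1% of the libraries. Smaller neuronal gates took cells with gsg1l and lmx1al (509 and 161 cells), cells with at least 2 of galn, pvalb7 and neurod6a (galn-gated, 161 and 55), cells with uts1 and otofa (uts1-gated, 64 and 43), habenula-gated cells (23 and 60) and cells with markers of immature neurons (125 and 47). A gate of transcription factor and peptide genes of forebrain and hindbrain inhibitory neurons took 29 and 12 cells. They are called dlx-gated here after the markers found in most control cells of the gate, dlx6a (69.0%) and dlx5a (62.1%). The name suits the knockout cells less well: lhx1a was the most frequent there (50.0%), with dlx5a, dlx6a, gata3 and lhx5 at 41.7% each. Microglia-gated cells numbered 13 and 18, and radial glia-gated cells 4 and 14. Another 535 control and 419 knockout cells met no gate, and 29 and 7 met several. Gates favour deep cells: the median depth was 2506 and 2834 UMIs in granule-gated cells but 12309 and 12061 in dlx-gated cells. Of the granule-gated cells, 670 and 539 were exactly at the minimum of 3 markers, and 452 and 349 other cells lay 1 marker below it.

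Among the glutamate transporters, slc17a7a, a zebrafish counterpart of mammalian Vglut1, was the most abundant in both libraries. Over all cells it stood at 485 CPM (474 to 497) in the control and 552 CPM (538 to 566) in the knockout, from 6676 and 6190 UMIs. By UMIs it ranked at place 295 of the 22582 genes detected in the control and at place 227 of 22358 in the knockout. At least 1 UMI was found in 66.4% of control and 71.5% of knockout cells. The counts were spread over many cells: the highest count in any control cell was 20 UMIs, and in any knockout cell 16. Across gates, slc17a7a was highest in granule-gated cells (589 and 665 CPM), followed by gsg1l/lmx1al-gated (542 and 603) and galn-gated cells (481 and 565). In the knockout library the intervals of these neighbours overlapped between gsg1l/lmx1al-gated cells (543 to 667) and either of the others, 647 to 684 in granule-gated and 493 to 644 in galn-gated cells. In the control the intervals were 571 to 607, 508 to 578 and 442 to 521 in the same order, so each overlapped only its nearest neighbour. Immature-gated cells came next at 430.4 and 433 CPM, with intervals (381 to 484 and 361 to 515) that overlapped those of galn-gated cells. In uts1-gated cells the level was far lower, at 49.0 and 71.8 CPM. Microglia-gated cells, which should lack the gene, had slc17a7a in 1 of 13 control and 0 of 18 knockout cells. Their median depths were 4385 and 9486 UMIs. The share in granule-gated cells was 70.9% and 77.2% at the lower median depths given above.

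The transporter gene slc17a6b, a counterpart of mammalian Vglut2, had a different distribution. Over all cells it stood at 178 CPM (171 to 185) in the control and 166 CPM (159 to 174) in the knockout, in 15.7% and 15.1% of cells. It was highest in uts1-gated cells, at 2055 CPM (1937 to 2179) and 1911 CPM (1776 to 2054), where 63 of 64 control and 36 of 43 knockout cells had it. The median uts1-gated control cell held 15 slc17a6b UMIs (range 0 to 68) and the median knockout cell 13 (0 to 99). Habenula-gated cells followed with 577 and 416 CPM. Lower levels were seen in immature-gated cells (138 and 123 CPM) and in gsg1l/lmx1al-gated cells (126 and 118 CPM), whose intervals overlapped in each library. Galn-gated cells (60.4 and 119 CPM) reached that range only in the knockout, as did dlx-gated cells, with 19 UMIs in 3 of 12 knockout cells (125 CPM). In granule-gated cells the level was 63.4 and 60.4 CPM, and in control dlx-gated cells no slc17a6b UMI was found in 382881 UMIs. RNA free in the suspension was put at up to 5.71% and 4.78% of the UMIs of granule-gated cells, from 16 marker genes of other cell types and from barcodes under 100 UMIs. Granule-gated cells outside 8 clusters poor in granule markers held 361 and 374 slc17a6b UMIs, against 53.4 and 37.6 expected from free RNA at those shares.

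The other 3 Vglut genes were rare. The paralog slc17a6a had 284 control and 135 knockout UMIs (20.6 and 12.04 CPM) and was found in 3.37% and 2.01% of cells. It was highest in galn-gated cells, at 83.6 CPM (68.1 to 102) in the control and 121 CPM (89.2 to 160.5) in the knockout. There it was present in 59 of 161 and 26 of 55 cells. The paralog slc17a7b had 26 and 20 UMIs, nearly all as single UMIs in separate cells, and gave no gate more than 6 UMIs except the granule gate with 11 in the knockout. The gene slc17a8, whose mammalian counterpart encodes Vglut3, had 9 UMIs in 6 control cells and 17 UMIs in 5 knockout cells. Of the latter, 9 UMIs lay in 2 dlx-gated cells and 6 in a single granule-gated cell. For slc17a7b, 5 UMIs in 5 of 23 control habenula-gated cells, 6 in 5 control galn-gated cells and 11 in 10 knockout granule-gated cells stood against 0.0111, 0.0584 and 0.277 UMIs expected from free RNA at its upper estimate. For slc17a8, the 9 UMIs of dlx-gated knockout cells stood against 0.00426 expected. These counts are too low to order the gates by level.

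**Figure D1:**
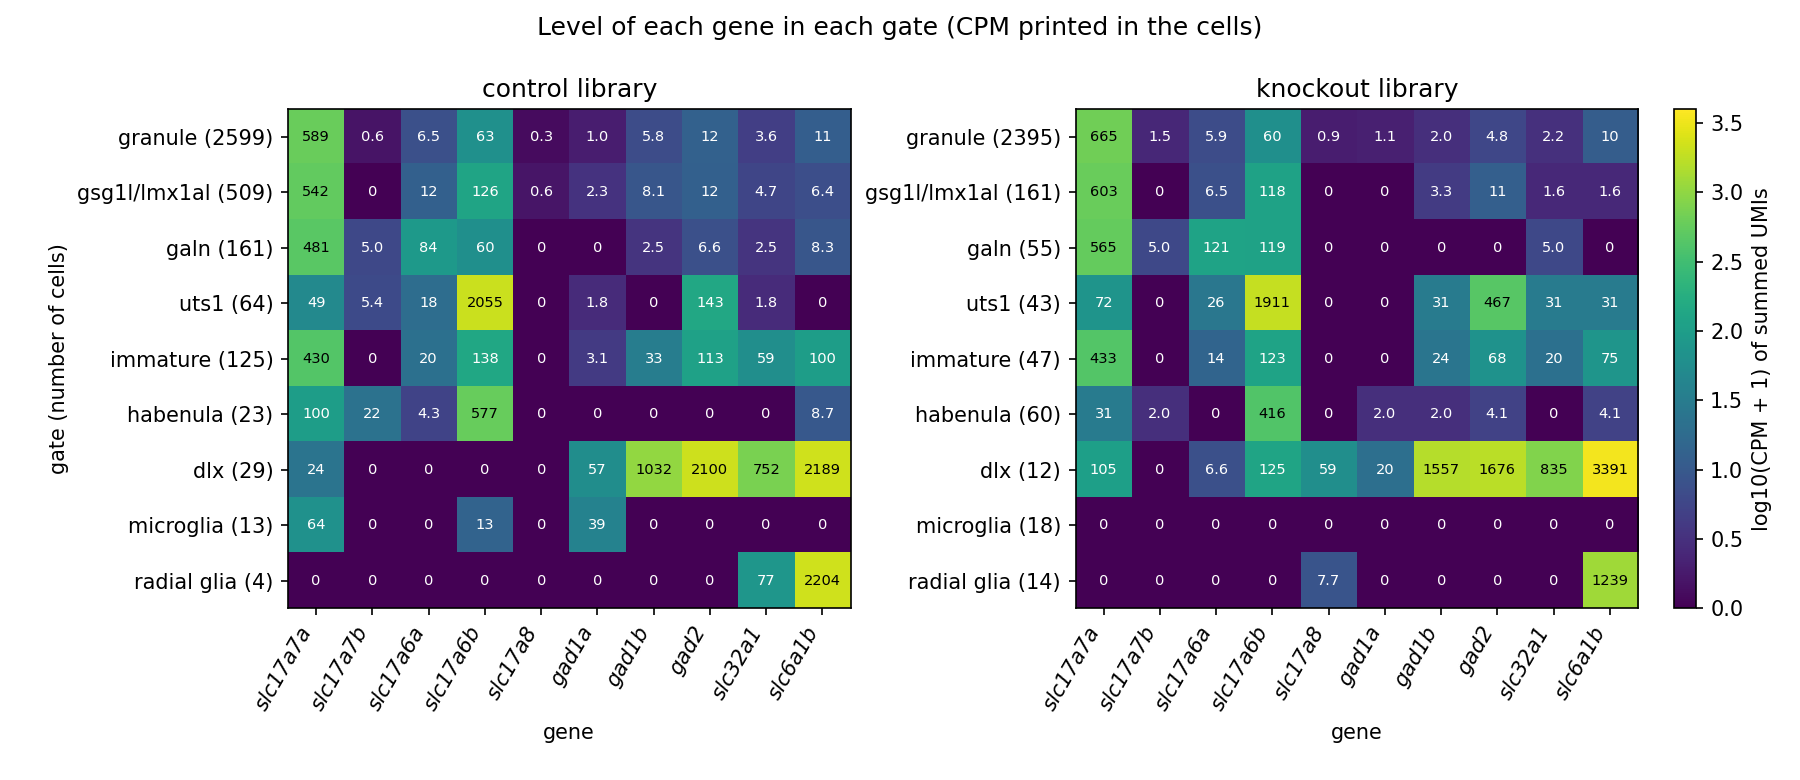
Level of each of the 10 genes (columns) in each marker gate (rows, with the number of cells) in the control and knockout libraries. Colour is log10(CPM + 1) of summed UMIs and the printed number is the CPM. The slc17a7a column is bright in the top 3 rows, slc17a6b stands out in uts1-gated cells (2055 and 1911 CPM), and the 3 GABA genes gad1b, gad2 and slc32a1 stand out in dlx-gated cells.

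The GABA genes were found in few cells, and most gad2 UMIs lay in a small cluster. Of the decarboxylases, gad2 was the most abundant, with 1920 control and 908 knockout UMIs (139.6 and 81.0 CPM) in 180 and 79 cells. The 5 cells with the most gad2 held 38.1% of the control and 61.8% of the knockout UMIs of that gene. The paralog gad1b had 636 and 363 UMIs (46.2 and 32.4 CPM) in 94 and 38 cells. The vesicular transporter gene slc32a1 had 511 and 256 UMIs (37.2 and 22.8 CPM) in 86 and 32 cells. The paralog gad1a was rare, with 60 UMIs in 34 control cells and 13 UMIs in 13 knockout cells. A cluster of 93 control and 45 knockout cells, led by the peptide genes cckb, ccka, cart2 and penka with otpb and dlx5a, held 1634 of the control and 639 of the knockout gad2 UMIs. It was computed without the 10 genes and held 26 of the 29 control and 11 of the 12 knockout dlx-gated cells. The same cluster was not free of Vglut genes. It held 294 control and 152 knockout slc17a6b UMIs (274 and 320 CPM) and 104 and 35 slc17a6a UMIs (97.0 and 73.6 CPM).

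In dlx-gated cells the level of gad2 was 2099.9 CPM (1957 to 2250.2) in the control and 1676 CPM (1476 to 1895) in the knockout. The level of gad1b there was 1032 and 1557 CPM and that of slc32a1 752 and 835 CPM. Of the 29 control cells, 26 had gad2, 26 had gad1b, 27 had slc32a1, and 25 had gad1b together with gad2. Of the 12 knockout cells, 8 had gad2, 7 had gad1b, 10 had slc32a1, and 4 had gad1b together with gad2. Every dlx-gated cell with gad1b also had slc32a1 in both libraries. The intervals of gad2 and gad1b did not overlap in the control and did so in the knockout (1365 to 1769 CPM for gad1b). The knockout values rest on few cells, since 5 cells held 92.5% of the gad2 and 95.8% of the gad1b UMIs of the gate. The dlx-gated cells were also not alike between libraries in their markers: dlx1a was in 58.6% of control and 8.33% of knockout cells of the gate, and lhx1a in 24.1% and 50.0%. What part this played in the Gad levels was not tested.

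Cell types that should lack GABA genes gave the background for these shares. Control habenula-gated cells held 0 UMIs of gad1a, gad1b, gad2 and slc32a1 in 23 cells, at a median depth of 10715 UMIs. With 3 counts as the floor, 0 of 23 allows up to 13.04% of cells with a UMI of each gene, and says nothing of cells that express it without a UMI. In the 60 knockout habenula-gated cells (median 7774 UMIs), gad2 was in 2 cells (3.33%). In granule-gated cells gad2 was found in 63 of 2599 control (2.42%) and 28 of 2395 knockout cells (1.17%). Most of these cells held a single gad2 UMI, 51 of the 63 in the control and 24 of the 28 in the knockout. Outside the 8 clusters poor in granule markers, 58 control and 26 knockout granule-gated cells had gad2, against 55.3 and 32.4 expected from free RNA at its upper estimate. By UMIs, gad2 there was above the expected number in the control (72 against 56.0) and not in the knockout (30 against 32.7). The 4 GABA genes together held 117 and 58 UMIs there, against 120 and 65.8 expected. By gene the counts differed from that sum. There were 22 and 15 gad1b UMIs against 38.1 and 17.1 expected, and 16 and 5 slc32a1 UMIs against 24.1 and 15.3. For slc6a1b there were 35 and 33 UMIs against 88.7 and 47.2. The upper estimate was thus above the counts of these genes, and a count of gad2 near it does not give the source of its UMIs. For gad1a the 7 and 8 UMIs stood above the 1.97 and 0.751 expected. Microglia-gated control cells, which should also lack the gene, held 3 gad1a UMIs in 2 of 13 cells, against 0.0216 expected. No UMI of gad1b, gad2 or slc32a1 was found in them, and the 18 knockout microglia-gated cells had none of any GABA gene. The part of free RNA in these shares was not tested beyond these counts.

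The uptake transporter gene slc6a1b, a counterpart of the mammalian neuronal and astrocytic GABA transporter GAT1, had 1662 control and 937 knockout UMIs (121 and 83.5 CPM). It was high in dlx-gated cells, at 2189 CPM (2043 to 2342) and 3391 CPM (3105 to 3697). It was also high in radial glia-gated cells, which held 57 UMIs in 2 of 4 control cells and 161 UMIs in 8 of 14 knockout cells (2204 and 1239 CPM). Those cells had no UMI of any Gad gene, and slc32a1 had 2 UMIs in 1 control cell. In the knockout library 5 radial glia-gated cells held 97.5% of the slc6a1b UMIs, and a single cell held 118 of the 161. Cells with slc6a1b thus included cells without a Gad UMI, and the gene was left out of the definition of a GABA-positive cell.

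Each cell was then given a transmitter state. A cell was glutamate-positive with at least 1 UMI of any of the 5 Vglut genes, and GABA-positive with at least 1 UMI of gad1a, gad1b, gad2 or slc32a1. Glutamate genes alone were found in 2832 control cells (69.2%, 67.8 to 70.6) and 2420 knockout cells (74.9%, 73.4 to 76.4). GABA genes alone were found in 108 control cells (2.64%, 2.17 to 3.18) and 30 knockout cells (0.929%, 0.627 to 1.323). Both were found in 154 (3.76%) and 94 cells (2.91%), and neither in 997 (24.4%) and 687 cells (21.3%). Cells with neither were the shallowest, with medians of 2096 and 2349 UMIs, against 3359 and 4341 UMIs in cells with both. When each cell was thinned to 1000 UMIs, glutamate genes alone were left in 43.5% and 47.5%, GABA genes alone in 2.47% and 1.18%, and both in 0.758% and 0.557%. The libraries kept the same order for all 3 states after thinning.

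The cells with GABA genes alone were spread over several gates. Ungated cells held 44 of the 108 GABA-only control cells and 11 of the 30 knockout ones. Granule-gated cells held 26 and 6 of them, and dlx-gated cells 23 and 6. A cluster of 36 control cells led by whrnb, plcl1 and hs3st2 held 8 of the GABA-only control cells and had no knockout cell. Differences in which cells were sorted and differences in what those cells express cannot be told apart with 1 library each.

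**Figure D2:**
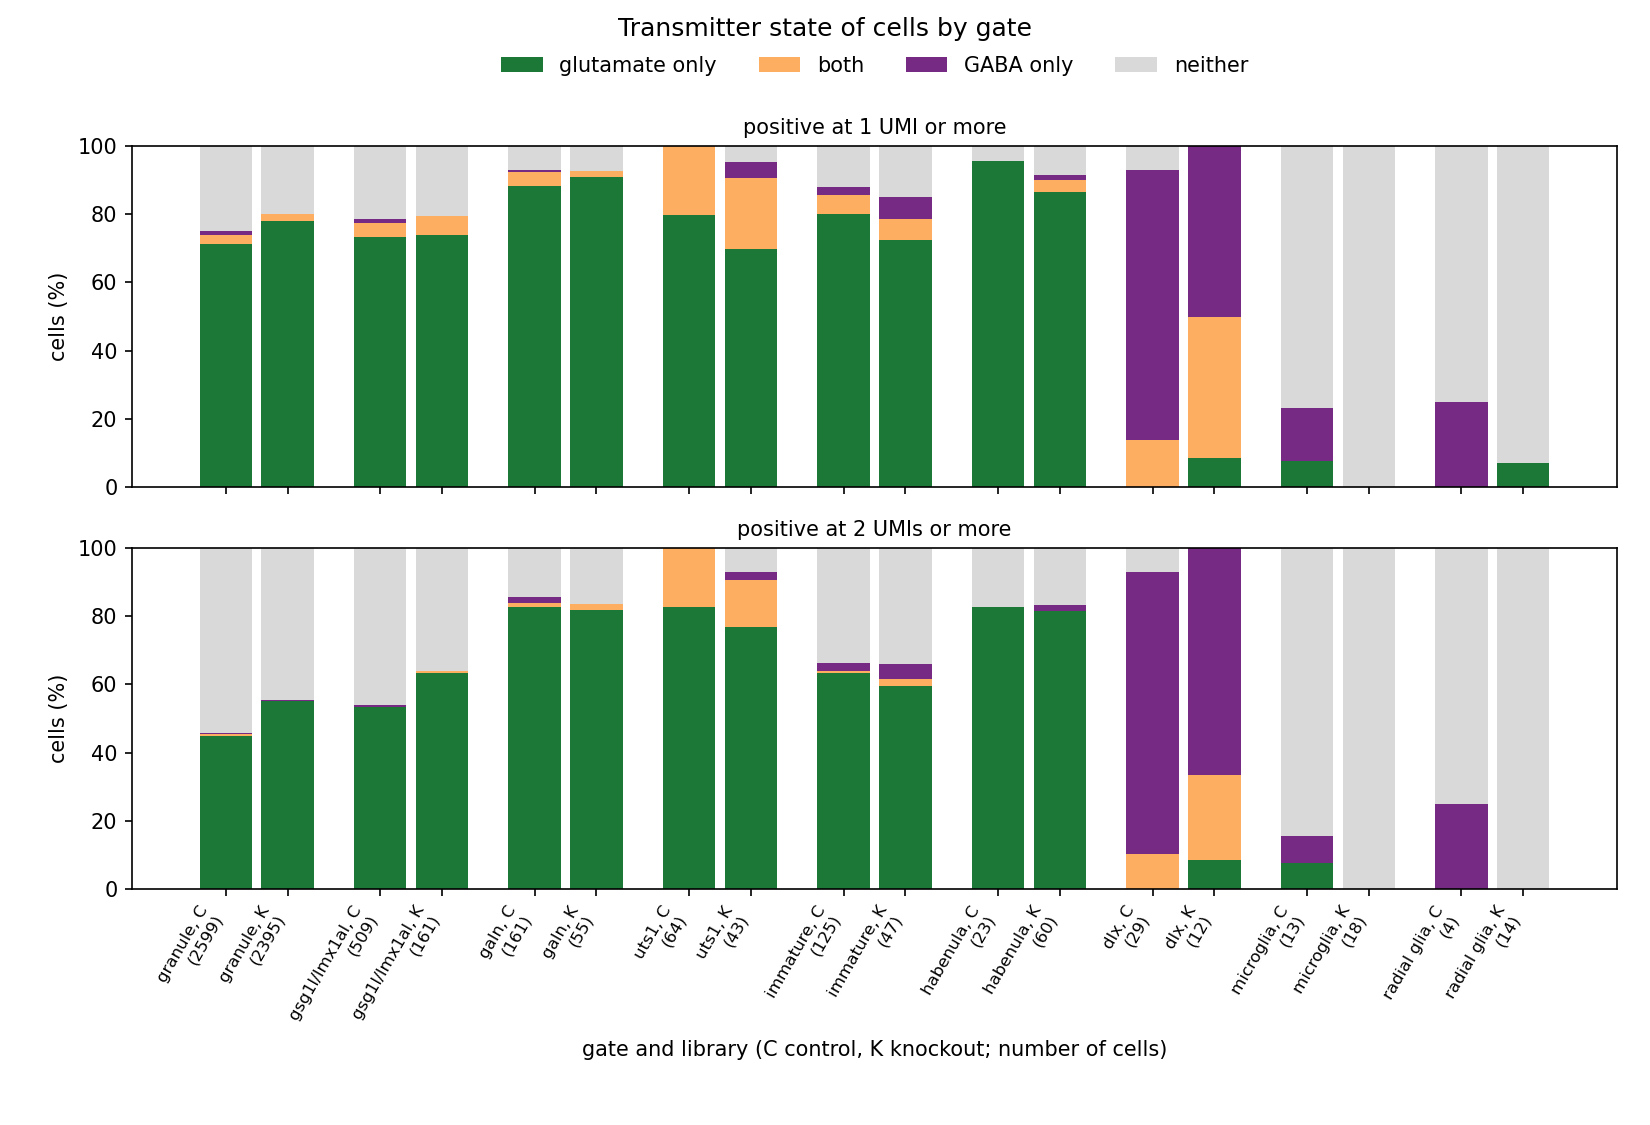
Share of cells (%) of each gate with glutamate genes only, GABA genes only, both or neither, in the control (C) and knockout (K) libraries, with a gene called at 1 UMI or more (top) and at 2 or more (bottom). Numbers in parentheses are cells. At 2 UMIs, cells with both make up visible shares of the uts1-gated (11 of 64 and 6 of 43) and dlx-gated bars (3 of 29 and 3 of 12), while the 14 and 2 granule-gated ones are a small share of their bars.

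Over all cells, both kinds of gene were found together in no more cells than the product of their shares. That product pools cell types and depths, so it cannot show whether joint detection exceeded independent detection within a cell type. The product of the glutamate and GABA shares gives 191 control and 96.5 knockout cells with both at 1 UMI, against the 154 and 94 counted. At 2 UMIs of each kind the counts were 41 and 22 cells against products of 56.9 and 28.3. In granule-gated cells the 74 and 47 cells with both at 1 UMI stood against products of 74.0 and 42.4. Outside the clusters poor in granule markers, 11 and 2 granule-gated cells had both at 2 UMIs, against products of 7.73 and 2.21. The cells with both at 2 UMIs were not spread evenly. Of the 41 control cells, 14 were granule-gated, 11 uts1-gated, 3 dlx-gated and 5 ungated, and 5 met several gates. Of the 22 knockout cells, 2 were granule-gated, 6 uts1-gated, 3 dlx-gated and 7 ungated, and 1 met several gates. By cluster, 11 control and 8 knockout cells lay in the cluster led by cckb and ccka, and 11 and 9 in the cluster led by uts1. Doublets are a further source of such cells: Scrublet's automatic threshold marked 0 control and 2 knockout cells and so did not work here. Removing instead the 134 of 4091 control and 84 of 3231 knockout cells with the highest doublet scores took out 4 of the 41 and 2 of the 22. These were larger shares of the cells with both than of all cells.

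Of the uts1-gated cells, 63 of 64 control and 36 of 43 knockout cells had slc17a6b. In the cluster led by uts1 lay 63 of the control and 35 of the knockout cells of the gate. A subset of uts1-gated cells also held gad2 with few UMIs of the other GABA genes. This was noticed in these values and is described cell by cell. With at least 2 gad2 UMIs there were 11 of 64 control and 7 of 43 knockout cells. The 11 control cells held between 2 and 20 gad2 UMIs (median 7) and between 11 and 68 slc17a6b UMIs (median 20). The 7 knockout cells held between 4 and 108 gad2 UMIs (median 16) and between 0 and 99 slc17a6b UMIs (median 24). All 11 control cells and 6 of the 7 knockout cells thus had slc17a6b. The cells without gad2 had medians of 14 and 13 slc17a6b UMIs. Per cell depth the medians were closer, at 2008 CPM in control cells with gad2 and 1833 CPM without, and 2284 and 2049.9 CPM in the knockout.

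The other GABA genes had few UMIs in these cells. In the 11 control cells gad1b was at 0 UMIs and slc32a1 at 1 UMI. In the 7 knockout cells the 10 gad1b and 12 slc32a1 UMIs all lay in the cell that had no slc17a6b. For every 100 gad2 UMIs there were 0 gad1b UMIs in control and 6.59 in knockout uts1-gated cells. The corresponding numbers were 49.1 and 92.9 in dlx-gated cells and 68.1 and 52.5 in barcodes under 100 UMIs, which stand for free RNA. Markers of the dlx gate summed to 275.7 CPM in control and 236.0 CPM in knockout uts1-gated cells, against 2236 and 2431 CPM in dlx-gated cells. Of the 19 markers, 15 and 14 were at 0 in uts1-gated cells. Cells that met several gates were left out of each, so a uts1-gated cell had under 3 of these markers by construction. The gap to dlx-gated cells was thus partly fixed in advance and does not bear on the source of the gad2 UMIs. The other neuronal gates had lower sums. These were 84.1 and 33.9 CPM in granule-gated, 31.4 and 13.1 in gsg1l/lmx1al-gated and 47.2 and 35.3 in galn-gated cells. Habenula-gated cells had 30.4 and 0 CPM and immature-gated cells 64.2 and 232 CPM. The cells with gad2 were deep, at medians of 12087 and 13087 UMIs against 7052 and 7353 for uts1-gated cells without it, and depth also raises the chance of seeing a gene or of a droplet with a pair of cells. Of the 11 control cells 2 were among those with the highest doublet scores, and of the 7 knockout cells 0. Of the uts1-gated cells without gad2, 5 of 52 control and 1 of 34 knockout cells were among them.

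**Figure D3:**
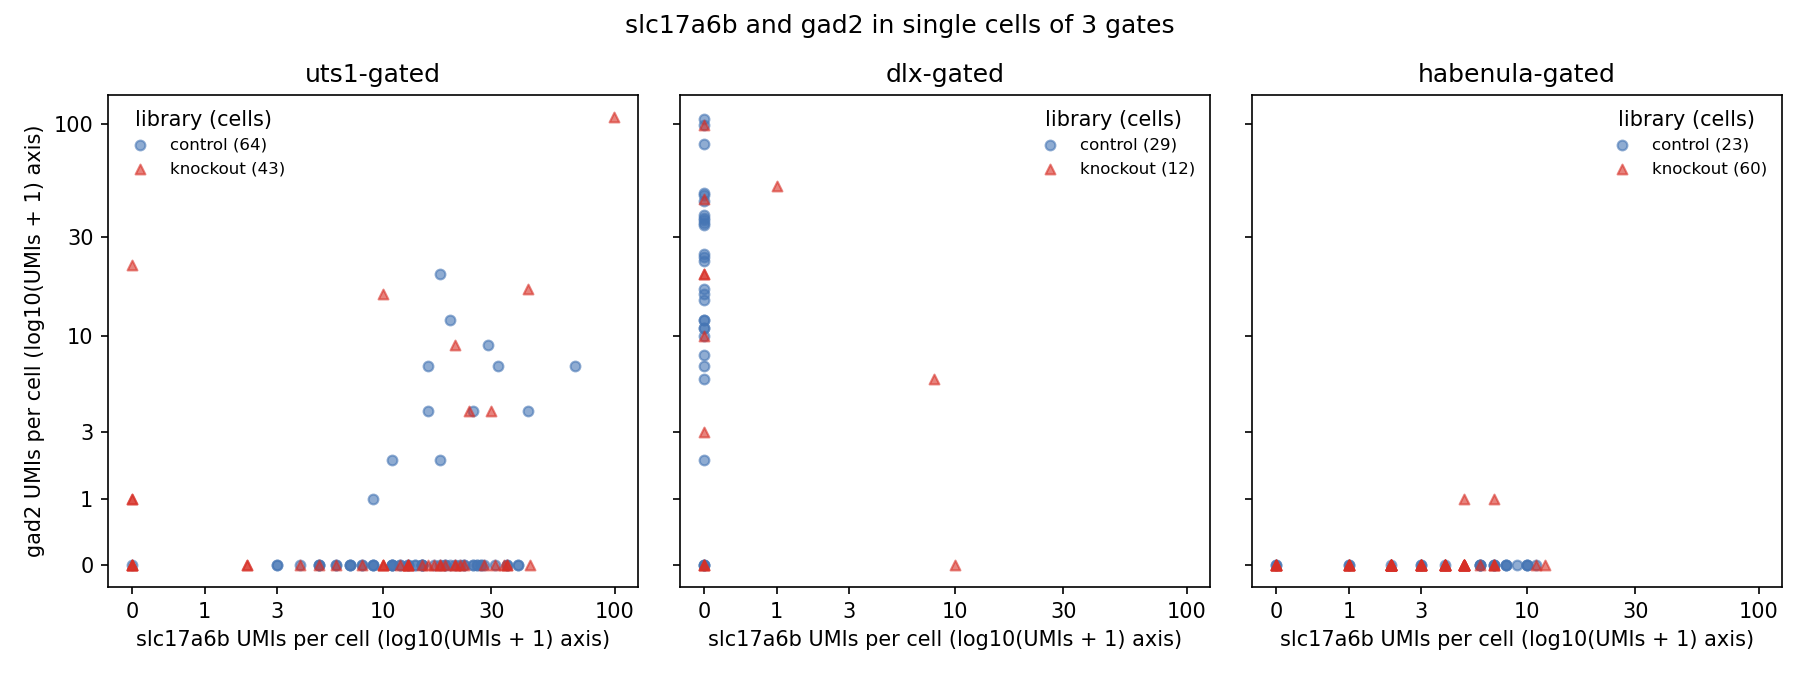
UMIs of slc17a6b (x axis) and gad2 (y axis), both on a log10(UMIs + 1) axis, in each cell of the uts1, dlx and habenula gates. Circles are control cells and triangles knockout cells. In the uts1 gate the 11 control cells with at least 2 gad2 UMIs have 11 to 68 slc17a6b UMIs, the knockout cell with 108 gad2 UMIs stands apart at the upper right, and control dlx-gated cells lie on the y axis.

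The level of gad2 in uts1-gated cells was 143 CPM (79 UMIs) in the control and 467 CPM (182 UMIs) in the knockout, a log2 ratio of knockout over control of 1.70 (1.315 to 2.104). This ratio rests largely on a single cell, since a knockout cell of 40147 UMIs, the deepest of that library, held 108 of the 182 gad2 UMIs. Without it the knockout level was 212 CPM and the log2 ratio 0.56 (0.09 to 1.04). Of the 74 knockout gad2 UMIs then left, 22 lay in a cell with 0 slc17a6b, 10 gad1b and 12 slc32a1 UMIs. The ratio without that cell as well was not computed, but 0.56 rests in part on it, as its 22 gad2 UMIs came in 17963 UMIs. In uts1-gated cells 3.05% of the 2096 genes with at least 100 UMIs over both libraries were past 2-fold in either direction and 1.48% were higher in the knockout. The share of uts1-gated cells with slc17a6b and gad2 at 1 UMI was 18.8% (10.1 to 30.5) in the control and 14.0% (5.298 to 27.9) in the knockout, with overlapping intervals.

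Isoform use within the Vglut family followed the gates. In granule-gated cells slc17a7a made up 89.3% of the Vglut UMIs in the control (88.4 to 90.1) and 90.6% in the knockout (89.8 to 91.4), with slc17a6b at 9.62% and 8.24%. In gsg1l/lmx1al-gated cells slc17a6b had a larger share, 18.5% (16.3 to 20.9) and 16.2% (12.9 to 19.9). In uts1-gated cells the shares were turned around, with slc17a6b at 96.6% and 95.1%. Habenula-gated cells also used mainly slc17a6b, 82.1% in the control and 92.7% in the knockout. The remaining slc17a7a of control habenula-gated cells, 23 UMIs, lay in 5 cells. Of the 23 cells of that gate 4 fell into the cluster led by cckb and ccka, while the 24 control cells of the cluster led by kiss1 held 1 slc17a7a UMI. The 91 knockout cells of that cluster held 21, so slc17a7a was 0.935% of control and 6.40% of knockout Vglut UMIs there, the other order from the 14.2% and 6.82% in habenula-gated cells.

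The galn-gated cells divided their Vglut UMIs mainly among 3 genes. Their Vglut UMIs were 76.3% slc17a7a, 13.3% slc17a6a and 9.59% slc17a6b in the control, and 69.8%, 15.0% and 14.6% in the knockout. Among cells with at least 3 Vglut UMIs, 74 of 120 control (61.7%) and 33 of 40 knockout galn-gated cells (82.5%) were made up neither of slc17a7a alone nor of slc17a6b alone. In granule-gated cells of the same kind 162 of 689 (23.5%) and 178 of 841 (21.2%) were so. In gsg1l/lmx1al-gated cells of that kind 82 of 178 (46.1%) and 34 of 69 (49.3%) were so. The median depths of the gsg1l/lmx1al gate were 2961 and 3645 UMIs. All 3 of slc17a7a, slc17a6a and slc17a6b were present in 17 and 15 such galn-gated cells, and in 3 and 2 granule-gated cells. The galn-gated cells were deeper (medians of 7556 and 7169 UMIs), which raises the chance of seeing several isoforms in a cell. Use was also mixed in knockout dlx-gated cells, whose 45 Vglut UMIs were 42.2% slc17a6b, 35.6% slc17a7a and 20% slc17a8.

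The paralogs slc17a6a and slc17a6b occurred in the same cells more often than the product of their shares. Over all cells 62 control and 37 knockout cells had both, against products of 21.7 and 9.84. By contrast slc17a7a and slc17a6b were found together in 402 and 299 cells against products of 428 and 349. Reads from paralogs of similar sequence could be split or shared by the counting, so joint detection of paralogs is uncertain to that extent. Within Gad, gad1b and gad2 were found together in 52 control and 13 knockout cells against products of 4.14 and 0.929. All these products pool cell types and depths, which by themselves can put a count above or below the product. Galn-gated cells, where slc17a6a was highest, had median depths of 7556 and 7169 UMIs, against 2585 and 2844 over all cells. What part this played was not tested. Over all cells gad2 made up 73.4% of control and 70.7% of knockout Gad UMIs. In dlx-gated cells it made up 65.8% (63.1 to 68.5) and 51.5%, with gad1b at 32.4% and 47.9% and gad1a at 1.80% and 0.606%.

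**Figure D4:**
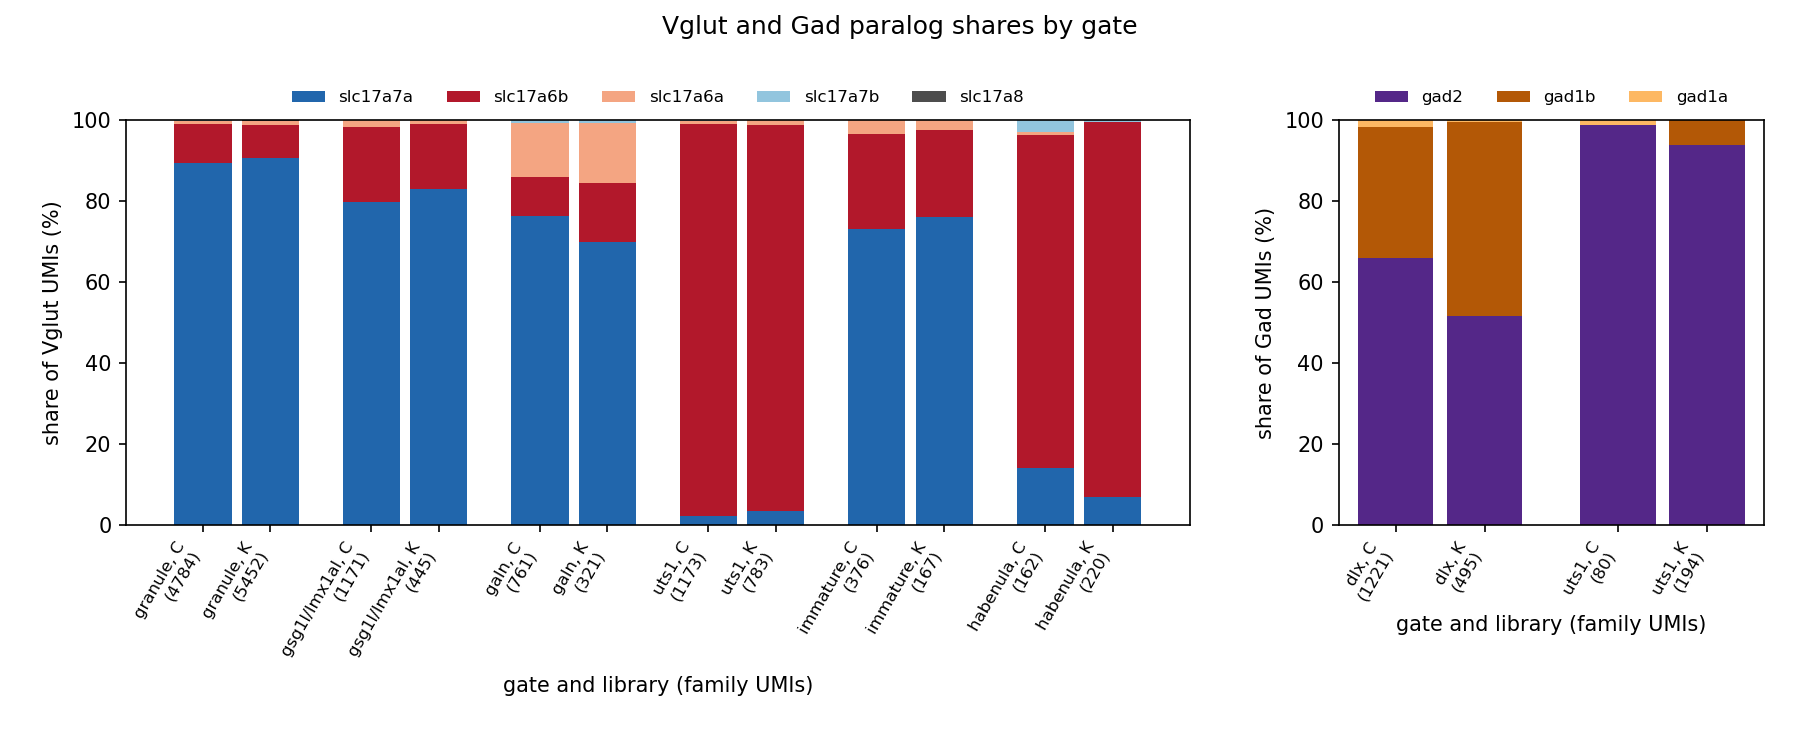
Share (%) of each gene in the summed Vglut UMIs of 6 gates (left) and in the summed Gad UMIs of the dlx and uts1 gates (right), control (C) and knockout (K), with family UMIs in parentheses. The left panel shows slc17a7a as the main gene of granule-, gsg1l/lmx1al-, galn- and immature-gated cells and slc17a6b of uts1- and habenula-gated cells. The right panel shows gad1b only as a minor share in uts1-gated cells (0 and 6.19%).

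Over all cells, 7 of the 10 had at least 100 UMIs over both libraries and 0 of these 7 were past 2-fold, where 4.8% of the 13120 genes so tested were past 2-fold in either direction. Both slc17a7a (485 and 552 CPM) and slc17a6b (178 and 166 CPM) moved little, with log2 ratios of knockout over control of 0.19 (0.14 to 0.24) and -0.10 (-0.19 to -0.01). The rarer slc17a6a was lower over all cells of the knockout, at 20.6 and 12.04 CPM and a log2 ratio of -0.78 (-1.09 to -0.48). In galn-gated cells, where slc17a6a was highest, its ratio went the other way, at 0.53 (0.01 to 1.04). In the cluster that held most of those cells it was 0.79 (0.36 to 1.21). Galn-gated cells were 3.94% of the control and 1.70% of the knockout cells. The 3 GABA genes with enough UMIs were also lower over all cells: gad2 by a log2 ratio of -0.79 (-0.90 to -0.67), slc32a1 by -0.70 (-0.92 to -0.48) and gad1b by -0.51 (-0.70 to -0.33). The log2 ratio of slc6a1b was -0.53 (-0.65 to -0.42). These intervals exclude 0, but over all cells the median of all genes was -0.03 and the middle 95% of genes ran from -0.96 to 1.00. Library makeup also differed: dlx-gated cells were 0.709% of the control and 0.371% of the knockout cells. They held 804 of the 1920 control and 255 of the 908 knockout gad2 UMIs. What part makeup played in these ratios was not tested.

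Within gates the same genes did not move together. In granule-gated cells, where 2.68% of 10878 genes were past 2-fold, slc17a7a stood at 589 and 665 CPM, a log2 ratio of 0.18 (0.12 to 0.24), and slc17a6b at 63.4 and 60.4 CPM, a ratio of -0.07. In gsg1l/lmx1al-gated cells, where 3.01% of 4657 genes were past 2-fold, their ratios were 0.15 and -0.10. Of the 4 genes tested in granule-gated cells only gad2 was past 2-fold, where 1.5% of all genes were lower past 2-fold. It stood at 11.99 and 4.85 CPM from 87 and 36 UMIs, and its log2 ratio was -1.31 (-1.91 to -0.73). A gate asking for 1 marker more gave -0.89, no longer past 2-fold. After expected free RNA was subtracted 29.8 and 2.88 gad2 UMIs were left, the latter under the floor of 3 counts, so no ratio was given. In barcodes under 100 UMIs, gad2 stood at 138 and 93.3 CPM. In galn-gated cells slc17a6b stood at 60.4 and 119 CPM, a log2 ratio of 0.97 (0.41 to 1.52), from 73 UMIs in 38 cells and 47 UMIs in 28 cells. There 1.84% of 3203 genes were past 2-fold. In the cluster that held most galn-gated cells the ratio was 1.18 (0.75 to 1.61). No share of all genes past 2-fold is given for that cluster, so this value has no background beside it.

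In dlx-gated cells, where 11.3% of 1173 genes were past 2-fold, 0 of the 4 genes tested was. Their log2 ratios were 0.15 (-0.16 to 0.46) for slc32a1, 0.59 (0.36 to 0.83) for gad1b, -0.33 (-0.53 to -0.12) for gad2 and 0.63 (0.47 to 0.79) for slc6a1b. The lower levels over all cells were thus not seen for slc32a1, gad1b and slc6a1b among dlx-gated cells, while gad2 was lower there too. The cluster led by cckb and ccka had the same directions. A cluster led by npb and pax7b (10 and 7 cells) had the other directions. Its ratios were -1.13 (-1.98 to -0.36) for gad1b, -2.51 (-4.18 to -1.20) for slc6a1b, -0.26 (-0.99 to 0.44) for slc32a1 and 0.62 (0.07 to 1.16) for gad2. No share of all genes past 2-fold is given for these clusters. In uts1-gated cells slc17a6b had a log2 ratio of -0.10 (-0.24 to 0.03), and in habenula-gated cells, where 9.57% of 1442 genes were past 2-fold, -0.47 (-0.79 to -0.15). In the cluster led by kiss1 the latter was -0.17 (-0.50 to 0.17), an interval that includes 0.

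**Figure D5:**
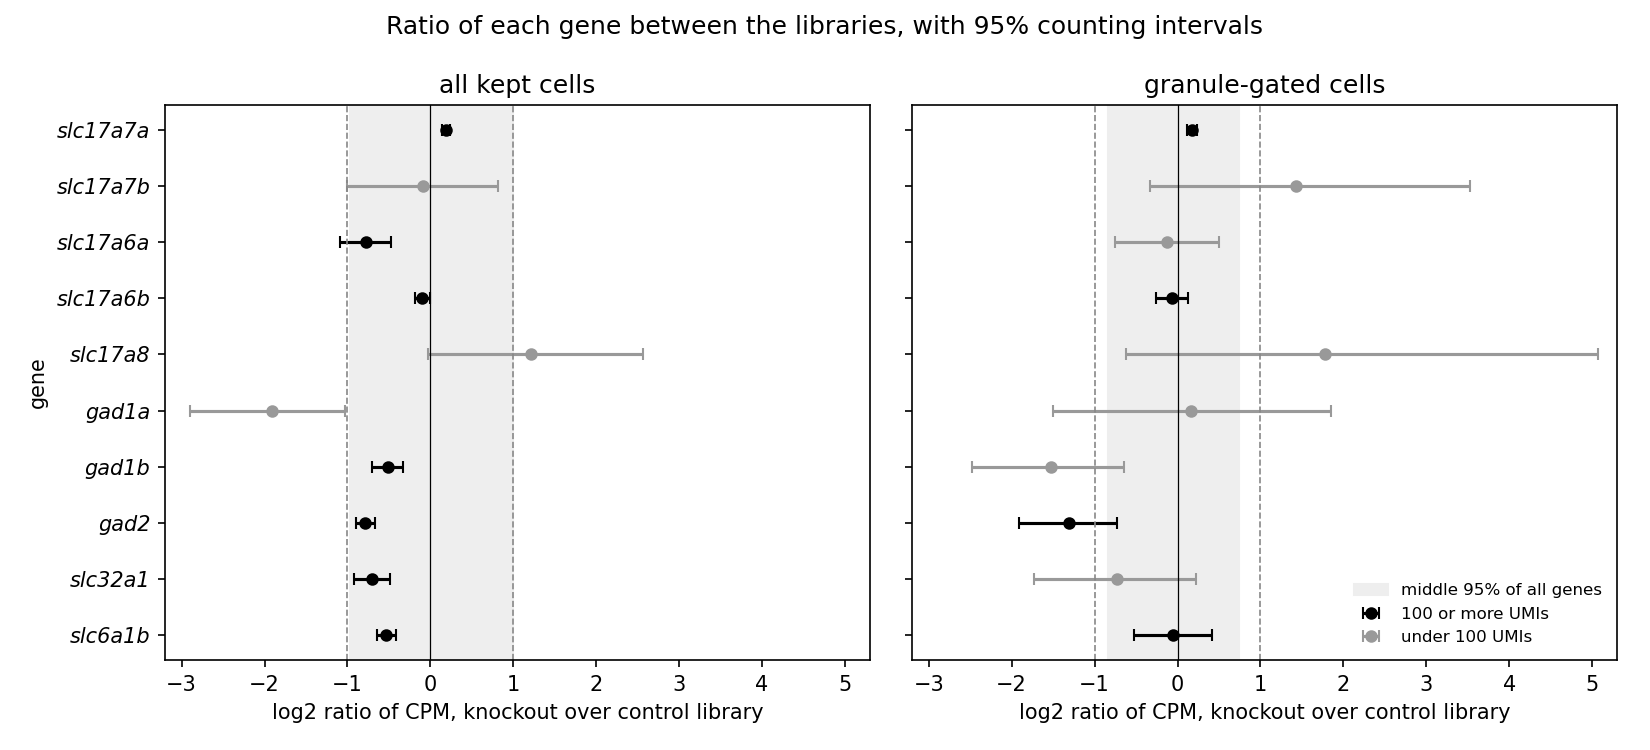
Log2 ratio of CPM, knockout over control, of each gene over all kept cells (left) and in granule-gated cells (right), with 95% counting intervals. Black points are genes with 100 or more UMIs over both libraries, grey points have fewer, dashed lines mark 2-fold and the shaded band holds the middle 95% of all genes. Black points lie between the dashed lines apart from gad2 in granule-gated cells at -1.31.

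The added sequence H2B-mGL and gpr85 itself were present in cells of every transmitter state. With states called at 2 UMIs, gpr85 was found in 35.5% of control cells with glutamate genes only and in 47.5% of those with GABA genes only, and in 27.7% and 53.3% of the corresponding knockout cells. Those GABA-only cells were deeper, with medians of 5165 and 6071 UMIs against 3109 and 3221. The level of gpr85 was 137 and 164 CPM in the control and 111 and 158 CPM in the knockout for the same states. H2B-mGL stood at 11635 CPM in control and 25681 CPM in knockout cells with glutamate genes only. In cells with GABA genes only it stood at 7273 and 11765 CPM. H2B-mGL was thus higher in the knockout in either state. Another added sequence, mCherry-NTR, stood at 94.0 CPM in control and 34.9 CPM in knockout cells with glutamate genes only. In cells with GABA genes only it stood at 155 and 466 CPM, in 11.3% of 80 and 13.3% of 30 cells. It was highest in cells with both kinds of gene, at 516 and 754 CPM, in 34.1% of 41 and 27.3% of 22 cells. Those cells were the deepest, with medians of 9375 and 11347 UMIs. Which added sequence gave the eGFP signal used for sorting is not given in the sources used here.

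Other genes of transmitter supply and clearance were taken from 5 lists. Over all cells 2.49% of genes were higher and 2.31% lower past 2-fold. For the supply of glutamate, 9 of 11 genes could be tested over all cells, of which 1 was higher past 2-fold and 0 lower, with a median log2 ratio of 0.20 against -0.03 for all genes. That gene was glulb, which encodes a glutamine synthetase, at 3.56 and 10.1 CPM and a log2 ratio of 1.50 (1.00 to 2.01). The glutaminase gene glsa, whose product makes glutamate from glutamine, had a log2 ratio of 0.49 over all cells and 0.75 (0.53 to 0.96) in granule-gated cells. The glutamine synthetase gene glula had a ratio of 0.89 (0.80 to 0.98) over all cells and went the other way in granule-gated cells, at -0.70 (-0.86 to -0.53). The other glutaminase gene glsb, the more abundant of the pair at 205 CPM in both libraries, had a ratio of 0.01. For glutamate uptake, 7 of 12 genes could be tested, of which 3 were higher past 2-fold and 0 lower, with a median of 0.43. They were slc1a2b (1.39) and slc1a3b (2.11), counterparts of the mammalian astrocyte transporters, and slc1a6 (1.68).

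The number of radial glia- and habenula-gated cells moved with these values, and its part in them was not tested. In radial glia-gated cells, 4 in the control and 14 in the knockout, slc1a2b stood at 5993 and 11901 CPM. The same cells held 155 of the 926 control and 1547 of the 1985 knockout slc1a2b UMIs. They also held 7 of the 49 control and 64 of the 113 knockout glulb UMIs. For glula they held 35 of the 1653 control and 1660 of the 2500 knockout UMIs. Habenula-gated cells held 40 of the 62 control and 110 of the 162 knockout slc1a6 UMIs, and their number was 23 and 60. In granule-gated cells, 8 genes of glutamate supply and 4 of glutamate uptake could be tested and 0 of either list was past 2-fold, with medians of 0.12 and -0.20. The markers slc1a2b, slc1a3b and glula are also in the list that defines the radial glia gate.

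For GABA uptake and breakdown, 4 of 6 genes could be tested and 0 were past 2-fold, with a median log2 ratio of -0.03. The paralog slc6a1a, another GABA transporter gene, stood at 19.0 and 10.9 CPM, a ratio of -0.80 (-1.12 to -0.49). It was highest in dlx-gated cells, at 259 and 361 CPM. The gene abat, which encodes GABA transaminase, was highest in radial glia-gated cells, at 580 and 569 CPM from 15 and 74 UMIs. It was at 282 and 353 CPM in habenula-gated, 214 and 237 CPM in dlx-gated and 37.6 and 50.2 CPM in granule-gated cells. For glutamine transport, 3 of 4 genes could be tested and 0 were past 2-fold. Of these slc38a3a, a glutamine transporter gene, was at 990.4 and 769.6 CPM in uts1-gated cells, higher than the 168 and 237 CPM in granule-gated cells. Of 21 genes of other transmitters 5 could be tested and 1 was lower past 2-fold, the glycine transporter gene slc6a9 (log2 ratio -1.10). In the same list slc18a3b, a vesicular acetylcholine transporter gene, was found mainly in habenula-gated cells, which held 37 of 65 control and 59 of 85 knockout UMIs.

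The genes most like the members were found by comparing cells with at least 2 UMIs of a member with cells without any, among 13113 genes, and ranking by the lower of the ratios in the 2 libraries. For slc17a7a (1624 and 1550 cells) the 5 highest were tcap, mia, arr3a, si:dkey-21e13.3 and hyal4, with tcap 4.82-fold and 4.30-fold higher in cells with slc17a7a. For slc17a6b (281 and 227 cells) the 5 highest were btr07, opn7c, adcyap1b, htr7b and ttll10. Of these adcyap1b, which encodes the neuropeptide PACAP, was the most abundant, at 918 and 967 CPM in cells with slc17a6b against 15.8 and 9.29 CPM without. For gad1b and gad2 summed (98 and 44 cells) they were otpb, dlx5a, sp9, BX901973.1 and dlx6a. The homeobox gene otpb stood at 130.4 and 314 CPM in these cells against 0.243 and 0.287 CPM in cells without. The genes dlx5a, sp9 and dlx6a are also markers of the dlx gate. Several ratios rest on few UMIs in cells without the member: mia had 12 and 1 there, btr07 0 and 7, and otpb 3 and 3. Others had more, such as tcap with 50 and 41 and adcyap1b with 164 and 79. The order of the 5 genes is uncertain to that extent.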

How the data were processed

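Adult brains were dissociated with papain, and live eGFP+ cells were sorted, 50000 per condition, for 10x 3 prime v3 libraries, per the labels' protocols. The deposited matrices hold raw UMI counts per gene and barcode, without a cell filter, written by Cell Ranger 7.1.0 per the file headers. Cell Ranger, Seurat and the build GRCz11 are named in the submitters' processing notes. Groups came from the labelled genotype.

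Barcodes were filtered as stated. UMIs were summed per library or gate. Poisson intervals (sums), Clopper-Pearson intervals (shares) and conditional binomial intervals (ratios) are exact and at 95%. Ratios use genes with at least 100 UMIs over both libraries, and past 2-fold replaces a test, which 1 library per genotype does not allow. The ratio step was checked on simulated counts. Cells were clustered into 23 clusters without the 10 genes (2000 variable genes, 30 components, 15 neighbours, resolution 1, scanpy 1.11.5, python-igraph 0.11.9). Clusters with a mean under 3 granule markers were called poor in them. All doublet scores come from Scrublet.

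The 10 genes and all lists were chosen with earlier results of these data known. Gate minimums were meant to be set from markers alone, but the output used for this also showed the 10 genes by cluster. The immature gate was put after the others once values by gate had been seen, so 2 gatings were run. The first gave 59 and 42 uts1-gated and 16 and 9 dlx-gated cells. The free RNA markers, the split of granule-gated cells by cluster and the cell by cell account of uts1-gated cells were also chosen after values were seen. Lists for Purkinje cells, oligodendrocytes and endothelium gave no usable gate. Named genes are the 10 members, genes of the 5 lists and the 5 most like a member. Genes dcx, isl1a, slc6a13, slc38a1 and chatb matched no feature by symbol. Sequences were not used here.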

Additional observations from a re-analysis of the deposited data

Results flagged for a closer look

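Several genes had log2 ratios of knockout over control with intervals above 0 in 1 or more gates and below 0 in others, among gates with at least 20 UMIs of the gene. The difference between gates was not tested, since each gate has 1 library per genotype. For slc17a6b the ratio was 0.97 in galn-gated and -0.47 in habenula-gated cells (1.18 and -0.17 in the clusters that held most of these cells, the latter with an interval that includes 0). For slc17a7a it was 0.18 in granule-gated, 0.23 in galn-gated (0.11 in their cluster, an interval that includes 0) and 2.16 in dlx-gated cells (9 and 16 UMIs in 4 and 4 cells), and -1.71 in habenula-gated cells (23 and 15 UMIs). That direction turned in the cluster led by kiss1, where the ratio was 2.63 (-0.01 to 8.0) from 1 and 21 UMIs, and 4 of the 23 control habenula-gated cells lay in the cluster led by cckb. The dlx and habenula ratios of slc17a7a rest on under 100 UMIs. Free RNA at its upper estimate would give 5.00 and 2.12 slc17a7a UMIs in dlx-gated and 3.01 and 6.83 in habenula-gated cells. For gad1b it was 0.59 in dlx-gated and -1.52 in granule-gated cells (42 and 15 UMIs, or -0.60 outside clusters poor in granule markers). For gad2 it was 1.70 in uts1-gated cells, -1.31 in granule-gated cells and -0.33 in dlx-gated cells. The uts1 value was 0.56 without the deepest knockout cell, and 22 of the 74 knockout gad2 UMIs then left lay in a single cell.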

How the results depend on the processing

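Of 168 values recomputed under other settings, 137 stayed within their counting error or kept their direction and size class, 30 moved, and 1 ratio whose interval excluded 0 changed sign: slc17a7a in habenula-gated cells (-1.71) was 2.63 in the cluster led by kiss1, a setting chosen after the data were seen, and the cause was not tested. In granule-gated cells, ratios near 0 crossed it for slc17a6b (0.02 without the highest doublet scores, 0.01 outside clusters poor in granule markers) and slc6a1b (0.02 with at least 2000 UMIs, 0.19 with 1 marker more). With at least 2000 UMIs and 1000 genes per cell, glutamate genes alone were in 74.5% of control and 78.4% of knockout cells, both kinds in 4.60% of control cells, and slc17a7a made up 68.3% and 73.3% of Vglut UMIs. With at least 500 UMIs and 250 genes, glutamate genes alone were in 66.3% and 69.8%, and GABA genes alone in 1.39% of knockout cells. With a gene called at 2 UMIs, glutamate genes alone were in 46.1% and 53.8%, GABA genes alone in 1.96% of control cells, and both in 1.00% and 0.681%. Thinned to 1000 UMIs, glutamate genes alone were in 43.5% and 47.5% and both in 0.758% and 0.557%. With slc6a1b counted as a GABA gene, GABA genes alone were in 3.30% and 1.33% and both in 4.91% and 4.09%. With genes of at least 20 UMIs, 9.74% of all genes were past 2-fold. With clusters in place of gates, slc17a7a made up 92.6% and 93.0% of granule Vglut UMIs and slc17a6b 94.4% of control habenula Vglut UMIs. Under the first gating, slc17a6b made up 97.7% of control uts1 Vglut UMIs, gad2 62.2% of control dlx Gad UMIs, and the uts1 gad2 ratio was 2.102. In granule-gated cells the log2 ratio of slc6a1b was -0.80 with 1 marker fewer, and that of gad1b -0.60 outside clusters poor in granule markers. The uts1 gad2 ratio was 0.56 without the knockout cell of 108 gad2 UMIs, and still rested in part on another cell with 22. The causes were not tested, apart from settings that by construction use fewer UMIs or other cells. With free RNA subtracted, gad1b, gad2 and slc6a1b gave no ratio in granule-gated cells. No paired analysis was possible because each genotype has 1 library. Depth limits the shares of cells with a gene, the 3 rare genes slc17a7b, slc17a8 and gad1a, and every gate under 100 cells.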
